A study of Rattus norvegicus with 23 samples.

Results

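The stress core described here is the set of 10 rat genes Atf4, Atf5, Ddit3 (the gene of CHOP), Atf3, Trib3, Ppp1r15a, Chac1, Asns, Ddit4 and Sesn2, chosen by name as factors and feedback genes of the integrated stress response and found by their symbols among the 30452 genes of the rat count table. The 23 samples came from NRK-52E cells (labelled NRKE, epithelial) and NRK-49F cells (labelled NRKF, fibroblasts), continuous lines from normal rat kidney, grown in DMEM with 10% FCS and 1.5 g/l NaHCO3 in 5% CO2. All samples were first kept for 24 h without FCS. They were then held for 48 h at pH 7.4 (control) or at pH 6.0, set with HCl (acidosis), and their poly(A) RNA was sequenced. NRK-52E contributed 6 samples at each pH, 3 from each of the sample groups 1 and 3. NRK-49F contributed 6 samples at pH 7.4, 3 from each of the sample groups 4 and 6, and 5 at pH 6.0, of which 2 were in sample group 4 and 3 in sample group 6. What a sample group is was not given in the sources used here, nor whether each sample was a separate culture passage, so the p-values measure the spread between these samples, which may in part be technical.

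The integrated stress response starts when one of a family of kinases, activated by unfolded proteins, lack of amino acids, haem shortage or double-stranded RNA, phosphorylates the initiation factor eIF2α. General translation then falls while the ATF4 message is translated more, and ATF4 protein switches on genes of amino acid supply and further factors such as CHOP and ATF3. TRIB3 and GADD34 (the product of Ppp1r15a) feed back on the pathway, and kidney cells meet its triggers in ischaemia and toxic injury. Message levels, which are what was measured, show neither eIF2α phosphorylation nor ATF4 protein.

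Each level below is in FPM, the fragments counted for a gene per 1000000 fragments of its library, whose size was first scaled with edgeR's TMM factors. The libraries held 16412564 to 34250535 counts. A gene was called where edgeR's quasi-likelihood test gave a Benjamini-Hochberg adjusted p below 0.05 over the 14777 genes that passed the filter on low counts. No transcript lengths were used, so levels were compared between samples and not between genes. Where a marker sum is said to be mostly certain genes, this refers to fragments, without correction for length. Fewer cells that express a gene and less RNA of it per cell cannot be told apart. The cell type markers fitted the labels only in part. In NRK-52E cells, the epithelial markers Epcam, Krt18 and Cldn4 had at most 3 counts in any sample and Cdh1 at most 12, while Krt8 had a mean of 499 FPM at pH 7.4 but 839 FPM in NRK-49F cells. Across the 6 epithelial markers in the table, the summed level ran from 441 to 651 FPM in NRK-52E controls and from 196 to 260 FPM at pH 6.0, against 667 to 1207 and 438 to 696 FPM in NRK-49F cells. The fibroblast marker Pdgfra separated the lines (1.83 FPM in NRK-52E against 306 FPM in NRK-49F at pH 7.4). So did Col1a1 (58.1 against 5877 FPM), Col1a2 (13.5 against 4476 FPM) and Vcam1 (1.20 against 272 FPM). Pdgfrb (41.4 against 84.6 FPM) and Dcn (0 against 4.00 FPM) were also higher in NRK-49F. Thy1, however, was at 0 in NRK-52E and had at most 4 counts in NRK-49F, and Col3a1 was higher in NRK-52E (6149 against 1212 FPM). The sum of the 8 fibroblast markers ran from 4899 to 8102 FPM in NRK-52E controls and from 1830 to 3110 FPM at pH 6.0, and from 10417 to 13439 and 7242 to 9732 FPM in NRK-49F cells. In NRK-52E cells the fibroblast sum was mostly Col3a1, with means of 6149 FPM in controls and 2402 FPM at pH 6.0. The epithelial sum there was mostly Krt8, at 499 and 222 FPM. The leukocyte marker Ptprc had at most 6 counts in any sample, but the macrophage marker Cd68 was at 29.9 FPM in NRK-49F controls and at 229 FPM at pH 6.0. The other macrophage markers stayed low there, Aif1 at 0.0397 and 0.0721 FPM and Lyz2 at 0.611 and 0.917 FPM. The endothelial markers Pecam1, Cdh5 and Kdr together stayed at or below 1.71 FPM. The part of these marker shifts in the changes below was not tested. The lines are therefore named by their labels only.

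Of the 10 genes, 9 had counts and passed the filter. Ppp1r15a (ENSRNOG00000020938, chromosome 1), whose product GADD34 returns protein phosphatase 1 to eIF2α, was listed at 0 counts in all 23 samples, and gets no value here. In RefSeq GRCr8 Ddit3 overlaps Mars1, Atf3 overlaps Garin4, Sesn2 overlaps an uncharacterised locus, and Atf5 overlaps Il4i1 and Nup62. The strand setting of the counting was not stated, so reads of such overlapping genes cannot be told apart with certainty. Atf4 (ENSRNOG00000017801) and Ddit3 (ENSRNOG00000006789) lie on chromosome 7, Atf3 (ENSRNOG00000003745) on chromosome 13, Trib3 (ENSRNOG00000007319) and Chac1 (ENSRNOG00000014387) on chromosome 3, Asns (ENSRNOG00000007546) on chromosome 4, Sesn2 (ENSRNOG00000042785) on chromosome 5, Ddit4 (ENSRNOG00000057078) on chromosome 20 and Atf5 (ENSRNOG00000020060) on chromosome 1.

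ATF4 binds DNA with a C/EBP partner at composite elements, whose core is searched here as TGATGNAA or its reverse complement TTNCATCA, and CREB-type factors bind the cAMP response element TGACGTCA, which is its own reverse complement. In windows of 250 bases before to 50 bases after the RefSeq start site of 9 of the 10 genes (Atf3 had no entry), the composite core occurred in Trib3 and Chac1 and the cAMP element in Ppp1r15a. Of the 33469 rat promoters of the same length, 3.98% held the composite core and 1.83% the cAMP element, with both strands searched. The Trib3 and Chac1 windows are shown because they hold a core match and because these genes differed in how they responded below, and the Ddit3 window is shown as that of the CHOP gene without a match. All are from RefSeq, GRCr8, written 5′ to 3′ in the direction of the gene, with the core match in capitals. Trib3 is at chr3:161275484-161275783 on the minus strand, with its match 21 bases before the start site, Chac1 at chr3:126795881-126796180 on the plus strand, with its match 167 bases before the start site, and Ddit3 at chr7:65001445-65001744 on the plus strand.
Trib3: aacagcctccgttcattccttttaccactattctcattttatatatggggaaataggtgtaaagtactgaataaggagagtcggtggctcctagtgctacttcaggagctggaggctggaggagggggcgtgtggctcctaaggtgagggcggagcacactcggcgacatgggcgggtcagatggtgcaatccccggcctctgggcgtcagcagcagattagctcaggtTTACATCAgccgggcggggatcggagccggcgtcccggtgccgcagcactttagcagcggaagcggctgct
Chac1: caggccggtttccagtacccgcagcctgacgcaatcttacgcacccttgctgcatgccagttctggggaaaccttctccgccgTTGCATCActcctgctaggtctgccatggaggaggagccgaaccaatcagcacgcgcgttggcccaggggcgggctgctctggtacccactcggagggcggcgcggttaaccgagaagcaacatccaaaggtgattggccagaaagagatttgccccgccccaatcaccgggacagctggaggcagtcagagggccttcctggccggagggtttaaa
Ddit3: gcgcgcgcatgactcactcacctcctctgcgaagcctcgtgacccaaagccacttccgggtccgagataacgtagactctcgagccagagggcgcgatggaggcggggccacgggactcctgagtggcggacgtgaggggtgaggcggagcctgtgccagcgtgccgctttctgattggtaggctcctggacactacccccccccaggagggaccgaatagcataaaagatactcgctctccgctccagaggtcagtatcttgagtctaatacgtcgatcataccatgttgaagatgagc
A match is a run of letters and not a shown binding site, and a window without a match says nothing of the sequence outside it.

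In NRK-52E cells, acidosis raised 8 of the 9 tested genes, and none fell. Across all tested genes 24.7% were called higher and 36.6% lower. The median log2 fold change of the 9 genes was 0.74, against -0.12 for all genes. The largest changes were those of Trib3 (6.00-fold) and Atf3 (4.16-fold), and 7 of the 9 genes had every sample at pH 6.0 above every sample at pH 7.4, a pattern seen in 15.4% of all tested genes. In NRK-49F cells 5 of the 9 genes rose and none fell, beside 14.5% of all genes called higher and 14.4% lower. Their median was 0.42, against 0.00 for all genes. Atf3 led there with a 10.5-fold rise, and 4 of the 9 genes did not overlap between the pH values, beside 10.4% of all genes.

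**Figure D1:**
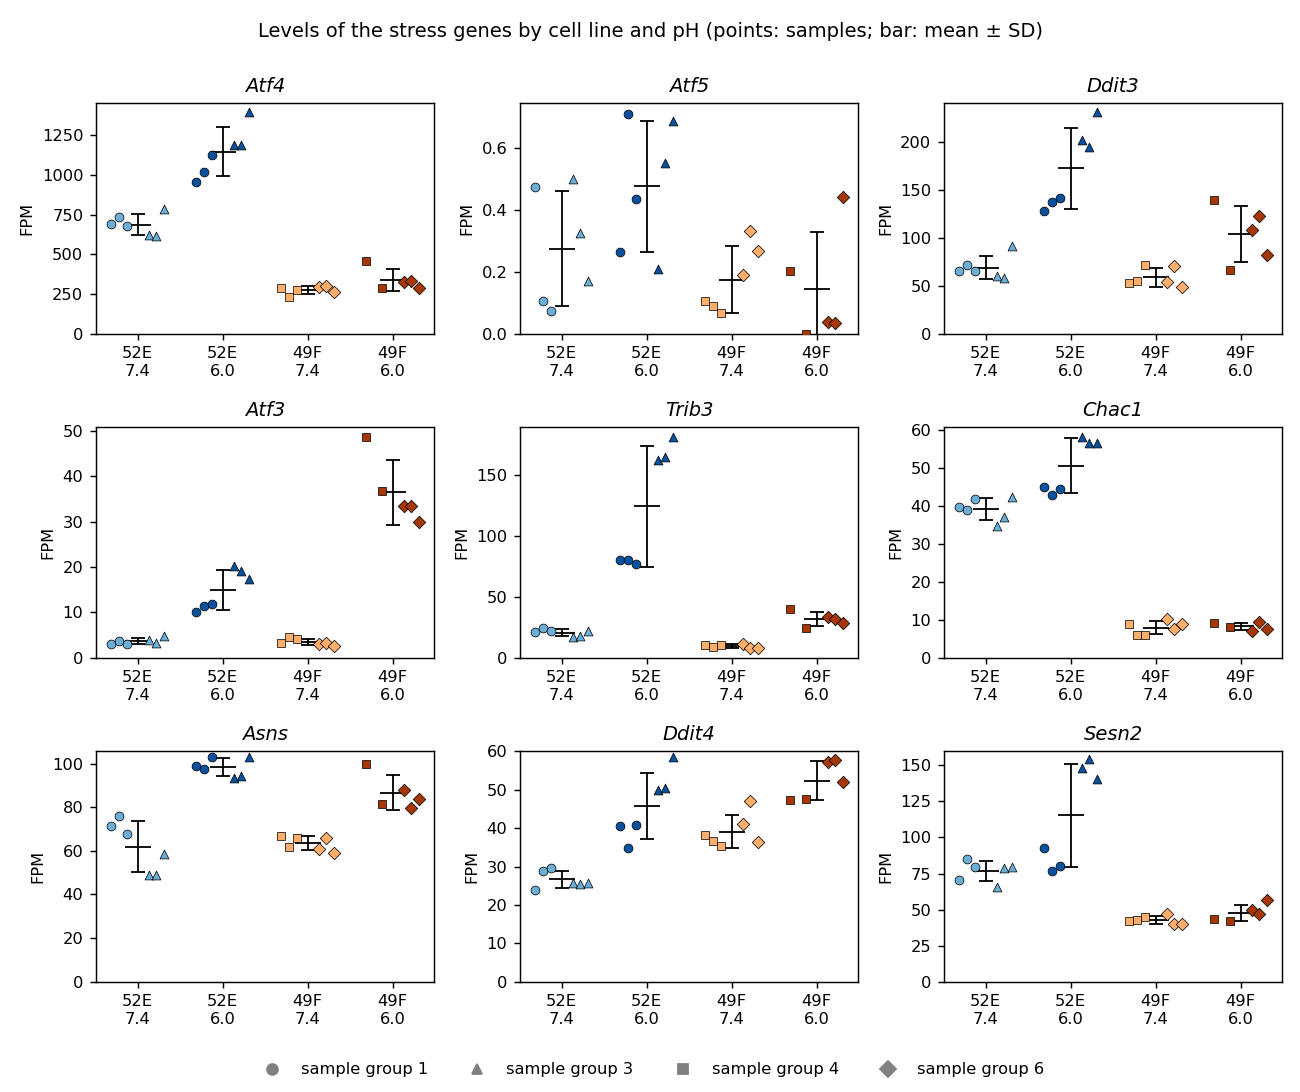
Level in FPM (linear axis from 0) of each of the 9 stress genes with counts, by cell line (52E, 49F) and pH. Each point is a sample, with its shape giving the sample group, and the bars are the mean ± SD. Atf3 and Trib3 rose in each line, Chac1 ran from 5.95 to 10.3 FPM in NRK-49F, and the NRK-52E samples at pH 6.0 split by sample group for Trib3 and Sesn2.

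Atf4 encodes the central transcription factor of the pathway. In NRK-52E controls its level ran from 614 FPM over a median of 684 to 786 FPM, and at pH 6.0 from 956 over 1158 to 1395 FPM. In NRK-49F controls it ran from 229 over 283 to 303 FPM, and the 5 samples at pH 6.0 had 458, 289, 329, 335 and 286 FPM. Thus every acid NRK-52E sample lay above every control, while in NRK-49F cells 2 of the 5 acid samples lay within the control range and 1 lay far above it. The NRK-52E means were 688 ± 66.3 FPM in controls and 1146 ± 154 FPM at pH 6.0 (± SD, n = 6 samples each). Their log2 fold change was 0.74 (SE 0.11), with a Benjamini-Hochberg adjusted p of 4.32e-06 in edgeR's quasi-likelihood test. The NRK-49F means were 277 ± 26.9 FPM (n = 6) and 339 ± 70.1 FPM (n = 5), a log2 fold change of 0.30 (SE 0.12) that was not called (adjusted p = 0.0594, same edgeR test). DESeq2 gave an adjusted p of 0.0479 for it, and edgeR called it on leaving out A038, A043 or A056 (adjusted p from 0.0310 to 0.0486). Leaving out A042, the highest acid sample, brought the log2 fold change down to 0.16 (adjusted p = 0.278, edgeR). Ordered by level, the conditions were NRK-49F at pH 7.4, NRK-49F at pH 6.0, NRK-52E at pH 7.4 and NRK-52E at pH 6.0, and only the first pair of neighbours overlapped.

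Ddit3 encodes CHOP, a C/EBP-type factor that ATF4 induces and that takes part in cell death under lasting stress. Its level in NRK-52E cells ran from 58.0 over 65.3 to 91.2 FPM in controls and from 128 over 168 to 231 FPM at pH 6.0. In NRK-49F controls it ran from 48.9 over 54.5 to 71.9 FPM, and the 5 acid samples had 139, 66.5, 108, 122 and 82.5 FPM. All acid NRK-52E samples exceeded the controls, whereas the lowest acid NRK-49F sample lay inside the control range. The rise was 2.51-fold in NRK-52E cells (log2 fold change 1.33, SE 0.17, adjusted p = 4.73e-07, edgeR's quasi-likelihood test) and 1.76-fold in NRK-49F cells (0.82, SE 0.18, adjusted p = 0.00118, same test). Mars1, the methionyl-tRNA synthetase gene that overlaps Ddit3, rose too, by a log2 fold change of 0.80 in NRK-52E and 0.55 in NRK-49F cells. Its part in the Ddit3 counts was not tested. By mean level the order was NRK-49F at pH 7.4 (59.0 FPM), NRK-52E at pH 7.4 (68.6 FPM), NRK-49F at pH 6.0 (104 FPM) and NRK-52E at pH 6.0 (172 FPM), with overlapping samples between each pair of neighbours.

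Atf3 encodes an early stress-induced repressor of the ATF family. The controls of both lines overlapped, from 2.97 over 3.49 to 4.87 FPM in NRK-52E and from 2.69 over 3.28 to 4.49 FPM in NRK-49F cells. At pH 6.0 its level ran from 10.0 over 14.6 to 20.3 FPM in NRK-52E cells, and the 5 NRK-49F samples had 48.6, 36.8, 33.5, 33.4 and 29.9 FPM. The acid samples of each line lay above all controls, and all NRK-49F acid samples lay above all NRK-52E acid samples. The log2 fold change was 2.06 in NRK-52E (SE 0.19, adjusted p = 1.52e-09) and 3.40 in NRK-49F cells (SE 0.19, adjusted p = 8.43e-12, edgeR's quasi-likelihood test for both). By level, the controls of both lines overlapped, and NRK-52E and then NRK-49F cells at pH 6.0 followed with no overlap. By log2 fold change Atf3 ranked 28 among the 14777 tested genes in NRK-49F cells and 292 in NRK-52E cells.

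Atf5, the nearest relative of Atf4, had few counts, 0 to 17 per sample. Its mean was 0.276 FPM in NRK-52E controls and 0.477 FPM at pH 6.0, and 0.176 and 0.144 FPM in NRK-49F cells. Over all 23 samples, 3 counts correspond to 0.0839 to 0.203 FPM. No acid change was detectable at these counts (adjusted p = 0.233 and 0.689 in edgeR's quasi-likelihood test).

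Trib3 encodes a pseudokinase that binds ATF4 and dampens its activity. In NRK-52E cells it ran from 17.1 over 21.5 to 24.6 FPM in controls and from 77.3 over 121.5 to 181 FPM at pH 6.0. In NRK-49F controls it ran from 7.66 over 9.70 to 11.2 FPM, and the 5 acid samples had 39.8, 24.4, 33.5, 31.7 and 28.3 FPM. The groups did not overlap in either line. The log2 fold change was 2.58 in NRK-52E (SE 0.20, adjusted p = 1.73e-10) and 1.72 in NRK-49F cells (SE 0.21, adjusted p = 1.14e-06, edgeR's quasi-likelihood test for both). By mean, NRK-49F controls (9.56 FPM) came below NRK-52E controls (20.7 FPM), NRK-49F at pH 6.0 (31.5 FPM) and NRK-52E at pH 6.0 (124 FPM), and only the middle pair had a small overlap.

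Chac1 encodes a glutathione-degrading enzyme downstream of ATF4. Like Trib3 it holds a composite core in the window shown above, but its change was far smaller. In NRK-52E cells its level ran from 34.8 over 39.3 to 42.4 FPM in controls and from 42.9 over 50.7 to 58.1 FPM at pH 6.0. In NRK-49F cells it ran from 5.95 over 8.15 to 10.3 FPM in controls, and the acid samples had 9.17, 7.99, 7.08, 9.38 and 7.61 FPM. The NRK-52E groups just failed to overlap, and the NRK-49F acid samples lay wholly inside the control range. The log2 fold change was 0.37 in NRK-52E (SE 0.12, adjusted p = 0.00899) and 0.05 in NRK-49F cells (SE 0.13, adjusted p = 0.804, edgeR's quasi-likelihood test for both). By level, both NRK-49F conditions came first and overlapped, and NRK-52E at pH 7.4 and then at pH 6.0 followed without overlap.

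Asns encodes asparagine synthetase, a classic amino acid target of ATF4. It ran from 48.97 over 63.3 to 75.8 FPM in NRK-52E controls and from 93.4 over 98.4 to 103 FPM at pH 6.0. In NRK-49F cells it ran from 59.2 over 63.8 to 66.9 FPM in controls, and the acid samples had 99.8, 81.6, 88.1, 79.7 and 83.7 FPM. Neither line showed an overlap, and the log2 fold changes were 0.67 (SE 0.094, adjusted p = 1.44e-06) and 0.45 (SE 0.098, adjusted p = 0.00111, edgeR's quasi-likelihood test for both). By level, the controls of both lines overlapped, and so did NRK-49F and NRK-52E cells at pH 6.0, which lay above them.

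Ddit4 and Sesn2 encode REDD1 and sestrin 2, inhibitors of the growth kinase complex mTORC1. Ddit4 ran from 24.0 over 25.8 to 29.8 FPM in NRK-52E controls and from 34.7 over 45.4 to 58.4 FPM at pH 6.0. In NRK-49F controls it ran from 35.3 over 37.5 to 47.0 FPM, and the acid samples had 47.3, 47.5, 57.2, 57.7 and 52.1 FPM. These groups did not overlap in either line, though in NRK-49F cells the highest control and the lowest acid sample lay close together. The log2 fold change was 0.78 in NRK-52E (SE 0.11, adjusted p = 1.01e-06) and 0.42 in NRK-49F cells (SE 0.11, adjusted p = 0.00564, edgeR's quasi-likelihood test for both). By mean level, NRK-52E controls came lowest with no overlap, and NRK-49F controls, acid NRK-52E and acid NRK-49F samples followed, where the acid NRK-52E samples overlapped both of the others.

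Sesn2 ran from 66.0 over 79.2 to 85.3 FPM in NRK-52E controls and from 76.9 over 116 to 154 FPM at pH 6.0. In NRK-49F cells it ran from 39.9 over 42.4 to 47.2 FPM in controls, and the acid samples had 43.6, 42.4, 49.5, 46.9 and 56.6 FPM. The acid samples of NRK-52E fell into a group inside or just above the control range and a group far above it, and the NRK-49F samples overlapped. Its log2 fold change was 0.59 in NRK-52E (SE 0.14, adjusted p = 9.77e-04) and 0.16 in NRK-49F cells (SE 0.15, adjusted p = 0.470, edgeR's quasi-likelihood test for both). By level, both NRK-49F conditions lay below both NRK-52E conditions, with overlap within each line and none between the lines.

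**Figure D2:**
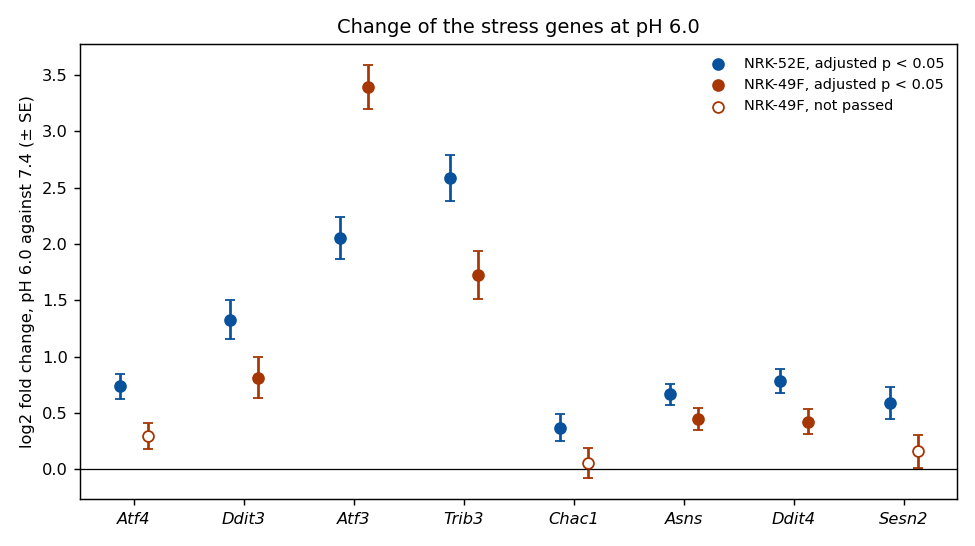
Log2 fold change (pH 6.0 against 7.4, ± SE) of the 8 stress genes with more than 17 counts in at least 1 sample, in NRK-52E (blue) and NRK-49F (orange) cells. Filled points passed an adjusted p of 0.05, and Atf3 (3.40 against 2.06) is the gene whose rise was larger in NRK-49F.

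The size of the response was then compared between the lines by a test of the difference itself, NRK-52E minus NRK-49F. Of the 9 genes, 2 had a called positive difference and 1 a called negative one, against 16.8% and 24.7% of all tested genes. Among all genes, a negative difference can also be a larger fall in NRK-52E. With so few genes, these counts are not read as a trait of the core. The log2 difference was 0.86 for Trib3 (SE 0.29, adjusted p = 0.0189) and 0.44 for Atf4 (SE 0.16, adjusted p = 0.0310, edgeR's quasi-likelihood test for both). For Atf3 it was -1.34 (SE 0.26, adjusted p = 2.30e-04, same test), so this factor rose more in the fibroblast-labelled line while the other called genes rose more in the epithelial-labelled one. The Atf4 call was lost on leaving out any of 7 samples (A033, A034, A038, A043, A051, A054 or A056), with adjusted p values up to 0.0636. The other 6 genes did not pass in this fit. Their differences were 0.51 for Ddit3 (adjusted p = 0.0994), 0.43 for Sesn2 (0.0994), 0.36 for Ddit4 (0.0633), 0.32 for Chac1 (0.161), 0.22 for Asns (0.207) and 1.15 for Atf5 (0.306), all edgeR quasi-likelihood adjusted p values. Ddit4 passed under DESeq2 (adjusted p = 0.0266), with RLE scaling (0.0349, edgeR) and with sample group as a block (0.0327, edgeR), and on leaving out A023, A024, A025 or A026 (0.0182 to 0.0498, edgeR). Ddit3 passed without A035 (adjusted p = 0.0468) or A042 (0.0383), and Sesn2 without A025 (0.0284) or A026 (0.0353), all with edgeR.

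The lines also differed before acid exposure, with 68.8% of all tested genes called at pH 7.4. Line differences are thus not particular to the core. At pH 7.4, Chac1, Atf4, Trib3 and Sesn2 were higher in NRK-52E than in NRK-49F cells, with log2 differences of 2.30, 1.31, 1.12 and 0.84, and Ddit4 was lower (-0.55). The adjusted p values of these 5 ran from 5.84e-14 to 6.63e-05 (edgeR's quasi-likelihood test), beside 35% of all genes called higher and 33.9% lower. Ddit3 (0.22, adjusted p = 0.265), Atf3 (0.06, adjusted p = 0.787) and Asns (-0.03, adjusted p = 0.770) were not called. At pH 6.0, 6 genes were higher in NRK-52E, with 36.6% of all genes called higher, and Atf3 was the only lower one (-1.28, adjusted p = 6.33e-07, same test), with 38.9% of all genes called lower. The log2 differences of 5 of them were 2.61 for Chac1, 1.98 for Trib3, 1.76 for Atf4, 1.27 for Sesn2 and 0.73 for Ddit3. The other was Atf5 (adjusted p = 0.0128, edgeR), whose samples overlapped between the lines. Its NRK-49F mean of 0.144 FPM lay within the range that 3 counts stand for in those samples (0.108 to 0.183 FPM), so no fold is given. Ddit4, which had been lower in NRK-52E controls, was at -0.19 (adjusted p = 0.116) and Asns at 0.19 (adjusted p = 0.0889, same edgeR test). Asns was called with sample group as a block (0.18, adjusted p = 0.0480, edgeR), with RLE scaling (0.0412), under DESeq2 (0.0347) and without A042 (0.0361), and Ddit4 was called lower without A038 (-0.27, adjusted p = 0.0230, edgeR).

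The NRK-52E response differed between the sample groups for part of the core. At pH 7.4 the samples of groups 1 and 3 overlapped for every gene but Asns. At pH 6.0 all group 3 samples lay above all group 1 samples for 7 of the 9 genes, a pattern found in 22.6% of all tested genes. The share of all genes with such an overlap at pH 7.4 was not counted, so the pH values are not compared in this respect. The summed fibroblast markers also split by sample group, at 4899 to 5452 FPM in group 1 and 6773 to 8102 FPM in group 3 at pH 7.4, and at 1830 to 1916 and 2890 to 3110 FPM at pH 6.0. The summed macrophage and leukocyte markers split the other way, at 4.64 to 4.92 and 2.59 to 3.57 FPM at pH 7.4 and at 9.77 to 9.84 and 5.72 to 7.33 FPM at pH 6.0. The epithelial sums overlapped between the groups at each pH (468 to 498 and 441 to 651 FPM, then 202 to 260 and 196 to 250 FPM). In NRK-52E cells the fibroblast sum was mostly Col3a1, the epithelial sum mostly Krt8, and the macrophage and leukocyte sum mostly Cd68 and Lyz2. The part of these marker differences in the sample group results was not tested. Trib3 is the clearest case. Its 3 acid samples of group 1 had 80.6, 80.3 and 77.3 FPM and those of group 3 had 162, 165 and 181 FPM, with control means of 22.5 and 18.9 FPM. The response in group 3 minus that in group 1 was a log2 difference of 1.35 (SE 0.22, adjusted p = 4.42e-04, edgeR's quasi-likelihood test in a model with sample groups). For Sesn2 the acid samples had 92.6, 76.9 and 80.4 FPM in group 1 and 148, 154 and 140 FPM in group 3, a difference in response of 0.89 (SE 0.14, adjusted p = 4.86e-04, same test).

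In all, 4 of the 9 genes had a called positive difference (group 3 minus group 1) and none a negative one. Of all genes, 3.78% had a called positive and 6.87% a called negative difference. Among all genes, a negative difference can also be a larger fall in group 3. The others were Ddit4 (0.55, SE 0.15, adjusted p = 0.0217) and Asns (0.41, SE 0.13, adjusted p = 0.0390, edgeR's quasi-likelihood test). The Asns difference came with lower controls in group 3 (48.97, 48.98 and 58.6 FPM) than in group 1 (71.4, 75.8 and 67.9 FPM) and with acid means of 97.0 and 99.9 FPM. It was lost on leaving out any of 10 of the 12 NRK-52E samples, all but A023 and A035 (adjusted p up to 0.0947), and the Ddit4 difference on leaving out any of A022, A023, A025 and A038 (up to 0.0655). Atf4 (0.34), Ddit3 (0.57), Atf3 (0.48) and Chac1 (0.45) had positive differences that were not called (adjusted p from 0.144 to 0.326). Within group 1 alone, 6 of the 9 genes rose, beside 18.8% of all genes, and Sesn2 (0.09, adjusted p = 0.496) and Chac1 (0.13, adjusted p = 0.427) did not pass. Within group 3 alone, 8 rose, beside 23.8% of all genes, among them Sesn2 (0.98, adjusted p = 1.005e-07) and Chac1 (0.58, adjusted p = 9.44e-04, edgeR). The rise of Sesn2 and Chac1 in NRK-52E cells was thus called in sample group 3 only, and the test of the difference between the groups passed for Sesn2 alone.

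The within-group log2 fold changes of the other core genes were as follows. In NRK-52E groups 1 and 3, Atf4 changed by 0.56 and 0.90, Ddit3 by 1.01 and 1.58, Atf3 by 1.77 and 2.25, Trib3 by 1.82 and 3.16, Asns by 0.48 and 0.89 and Ddit4 by 0.49 and 1.04, and all of these were called. In NRK-49F groups 4 and 6, Ddit3 changed by 0.78 and 0.85, Atf3 by 3.43 and 3.44, Trib3 by 1.67 and 1.79, Asns by 0.48 and 0.44 and Ddit4 by 0.37 and 0.42, again all called. Sesn2 was at -0.01 and 0.26 there and Chac1 at 0.30 and -0.15, none of them called.

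**Figure D3:**
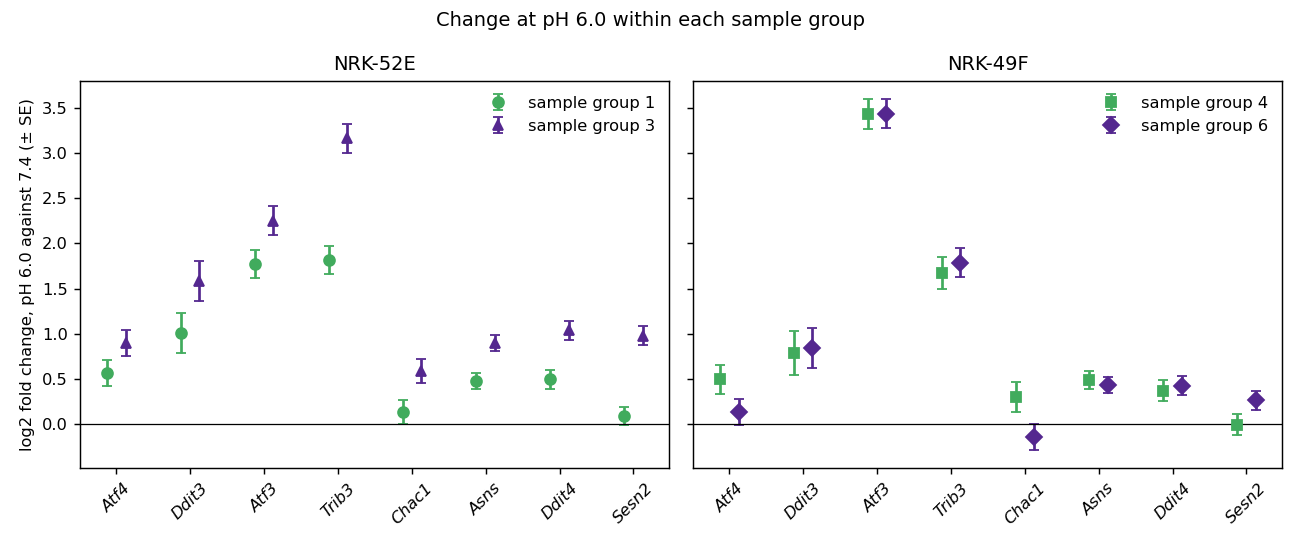
Log2 fold change (pH 6.0 against 7.4, ± SE) of 8 stress genes within each sample group, in NRK-52E (left) and NRK-49F (right) cells. In NRK-52E every point of group 3 lies above that of group 1, with Trib3 at 3.16 and 1.82. In NRK-49F the points of groups 4 and 6 lie close together for Atf3 (3.43 and 3.44).

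In NRK-49F cells no gene at all differed in its response between groups 6 and 4 (0% of the tested genes in edgeR's quasi-likelihood test, with 596 genes at an unadjusted p below 0.05 and 10 genes called by DESeq2). Within group 4, 6 of the 9 genes rose, beside 12% of all genes, and within group 6, 5 rose, beside 10.3% of all genes. The gene that made the difference in count was Atf4, at 0.50 in group 4 (SE 0.16, adjusted p = 0.0292) and 0.14 in group 6 (SE 0.14, adjusted p = 0.587, edgeR). The difference between these values did not pass (-0.36, adjusted p = 0.997, same test). Group 4 had only 2 acid samples, A042 at 458 FPM and A043 at 289 FPM, with controls up to 288 FPM. Without A042 the difference for Atf4 was 0.011. Among the 5 acid samples, A043 and A056 had the smallest libraries (16800361 and 18159388 counts) and also the lowest levels of Atf4, Ddit3 and Trib3, and the part of depth in these levels was not tested.

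Upstream of the core stand the 4 eIF2α kinases. This list and those below were chosen with earlier results of these data known, so their shares are descriptions only. Each list below is read against all tested genes, of which 24.7% rose and 36.6% fell in NRK-52E cells (median log2 fold change -0.12) and 14.5% rose and 14.4% fell in NRK-49F cells (median 0.00). In NRK-52E cells, 3 of the 4 kinases rose and none fell (median 0.40), and the NRK-49F median was 0.06. Eif2ak3 (PERK, the kinase that senses unfolded proteins in the endoplasmic reticulum) had 54.9 ± 8.67 FPM in controls and 137 ± 12.8 FPM at pH 6.0 (± SD, n = 6 samples each), with a log2 fold change of 1.32 (SE 0.11, adjusted p = 1.92e-10). Eif2ak2 (PKR, activated by double-stranded RNA) rose by 0.45 (adjusted p = 0.0253), with 28.8 ± 2.98 FPM in controls and a wider spread at pH 6.0 (39.2 ± 15.3 FPM). Eif2ak1 (HRI, the haem-regulated kinase) rose by 0.34 (adjusted p = 6.70e-05), while Eif2ak4 (GCN2, which senses uncharged tRNA) was at 0.35 (adjusted p = 0.0756, all edgeR's quasi-likelihood test). In NRK-49F cells none was called, and their values ran from -0.09 for Eif2ak1 to 0.16 for Eif2ak2, with Eif2ak3 at -0.02 and Eif2ak4 at 0.14. The response of Eif2ak3 differed between the lines by 1.34 (adjusted p = 2.19e-07, edgeR) and for Eif2ak1 by 0.42 (adjusted p = 6.49e-04, edgeR).

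Of 16 genes for eIF2, its exchange factor eIF2B, its phosphatases and the kinases' activators, 11 rose and 3 fell in NRK-52E cells (median log2 fold change 0.34), and 4 rose and 3 fell in NRK-49F cells (0.07). These are 68.8% and 18.8% of the list in NRK-52E, beside 24.7% and 36.6% of all genes, and 25% and 18.8% in NRK-49F, beside 14.5% and 14.4%. The largest rise in NRK-52E was that of Eif2b1, an eIF2B subunit (1.16, adjusted p = 5.08e-09), and the largest fall that of Oma1, the mitochondrial protease that relays stress to HRI, from 13.01 to 3.50 FPM (-1.89, adjusted p = 6.19e-11). In NRK-49F the extremes were Eif2b2, another eIF2B subunit (0.78, adjusted p = 6.01e-04), and Nck1, an adaptor protein (-0.62, adjusted p = 2.10e-06, edgeR's quasi-likelihood test for all). Since Ppp1r15a gave no counts, the related Ppp1r15b, the constitutive partner of the eIF2α phosphatase, was the measured gene of the pair. It had 92.1 ± 6.23 FPM in NRK-52E controls and 148 ± 39.2 FPM at pH 6.0 (± SD, n = 6 samples each), a rise by a log2 fold change of 0.68 (adjusted p = 3.60e-05), and its value in NRK-49F cells was 0.14 (adjusted p = 0.460, edgeR).

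The core genes have paralogues and family relatives. Of 13 tested relatives, 2 rose and 8 fell in NRK-52E cells (median -0.26, against -0.12 for all genes), and 1 rose and 2 fell in NRK-49F cells (-0.14). The shares that rose and fell were 15.4% and 61.5% in NRK-52E (24.7% and 36.6% of all genes), and 7.69% and 15.4% in NRK-49F (14.5% and 14.4%). Where Trib3 rose, Trib1 fell in NRK-52E cells from 19.7 to 10.8 FPM (-0.86, adjusted p = 2.16e-04), and in NRK-49F cells Trib2 fell from 29.3 to 10.5 FPM (-1.48, adjusted p = 0.00111, edgeR's quasi-likelihood test for both). Trib2 was at 0.728 FPM in the NRK-52E control A021, which also held more Pdgfra (4.73 FPM) than the other NRK-52E samples (at most 2.21 FPM), and at most 0.0986 FPM in the other NRK-52E samples, so its called fall in that line is given no fold. Trib1 in NRK-49F cells was at 0.38 (adjusted p = 0.123, edgeR). Beside Chac1, Chac2 fell in NRK-52E cells from 12.8 to 5.88 FPM (-1.12, adjusted p = 5.55e-08, edgeR). Beside Sesn2, Sesn1 (-0.40, adjusted p = 7.16e-04) and Sesn3 (-0.87, adjusted p = 0.00263) fell in NRK-52E cells, and neither was called in NRK-49F (-0.02 and -0.27, edgeR).

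Among the relatives of the ATF factors, Atf6, the membrane-bound factor of the unfolded protein response, went up in the NRK-52E line, with 45.3 ± 11.3 FPM in controls and 117 ± 39.7 FPM at pH 6.0 (± SD, n = 6 samples each, log2 fold change 1.36, adjusted p = 1.35e-05), while Atf6b (-0.36), Atf2 (-0.26) and Atf1 (-0.23) fell and Atf7 (-0.21, adjusted p = 0.425) was not called. In NRK-49F cells none of these 5 was called. Jdp2, the nearest relative of Atf3, was at 0.05 in NRK-52E (adjusted p = 0.669) and fell in the NRK-49F line from 43.2 to 26.1 FPM (-0.73, adjusted p = 1.21e-05). Batf3 rose in NRK-49F cells from 0.355 to 2.20 FPM (adjusted p = 1.20e-05, edgeR's quasi-likelihood test for all) and was close to 0 in NRK-52E. Of 11 genes whose proteins can pair with ATF4, CHOP or ATF3, 2 rose and 3 fell in NRK-52E (median -0.31), and 3 rose and 2 fell in NRK-49F cells (-0.06). In NRK-52E these shares, 18.2% higher and 27.3% lower, were below those of all genes (24.7% and 36.6%), and in NRK-49F 27.3% and 18.2% stood beside 14.5% and 14.4%. Nfe2l1 led the rises in NRK-52E (0.77, adjusted p = 1.82e-08) and Fosl1 in NRK-49F cells, from 38.5 to 112 FPM (1.54, adjusted p = 1.45e-09), where Cebpd fell from 23.4 to 9.50 FPM (-1.30, adjusted p = 0.00149, edgeR). Cebpd, at no more than 0.336 FPM in any NRK-52E sample, is given no fold there.

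**Figure D4:**
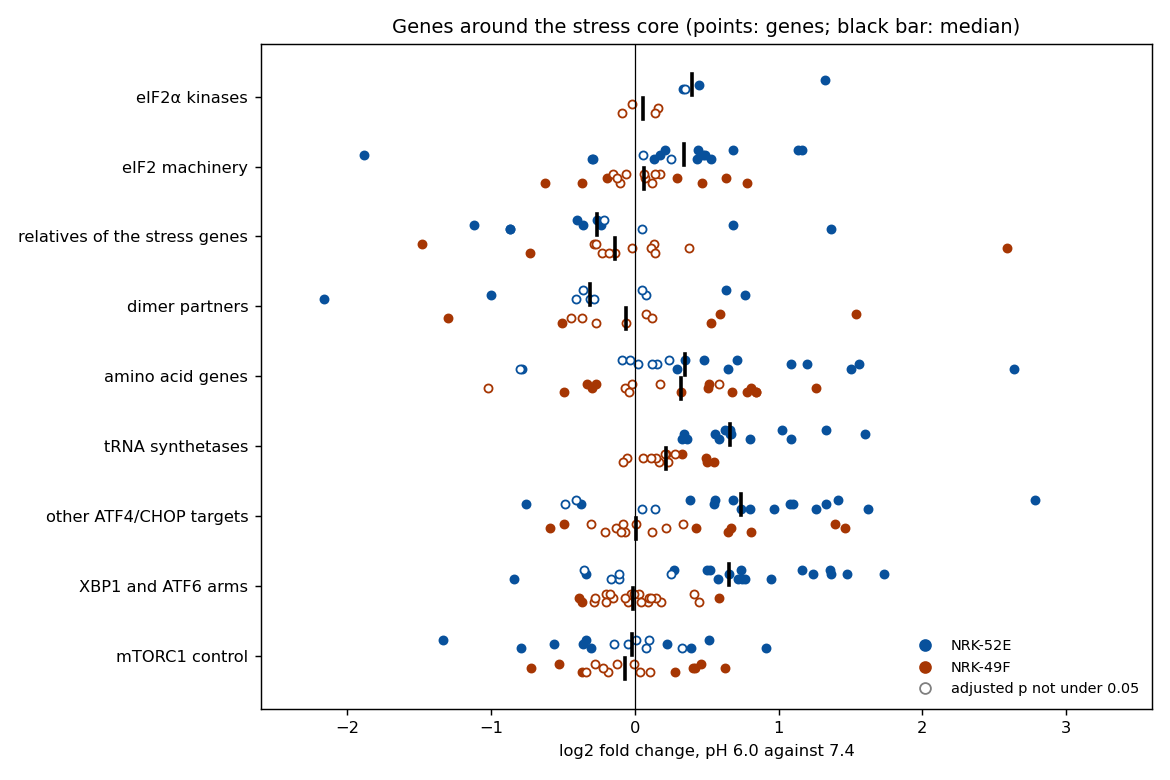
Log2 fold change (pH 6.0 against 7.4) of the genes in 9 lists around the stress core, in NRK-52E (blue) and NRK-49F (orange) cells. Each point is a gene, filled where the adjusted p was under 0.05, and genes whose mean at either pH was at or below 0.203 FPM are not drawn. The black bars are medians over all tested genes of a list, and those of the tRNA synthetases lie at 0.66 and 0.21.

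Known targets of the core factors were counted next. All 14 tested genes of the tRNA synthetase list rose in NRK-52E (median 0.66), led by Xpot, the tRNA exporter (113 to 344 FPM, 1.60, adjusted p = 1.06e-11), and 4 rose in NRK-49F (median 0.21), led by Mars1 (0.55, adjusted p = 7.13e-05, edgeR's quasi-likelihood test). This is 28.6% of the list in NRK-49F, where 14.5% of all genes rose, while 24.7% of all genes rose in NRK-52E. Of 19 genes of amino acid synthesis and transport, 10 rose and 1 fell in NRK-52E (0.35), and 9 rose and 4 fell in NRK-49F cells (0.32), where the medians of all genes were -0.12 and 0.00. The shares that rose and fell were 52.6% and 5.26% in NRK-52E (24.7% and 36.6% of all genes), and 47.4% and 21.1% in NRK-49F (14.5% and 14.4%). Among genes averaging 5 FPM or more, Pycr1, an enzyme of proline synthesis, rose most in both lines, with 22.6 to 141 FPM (2.64, adjusted p = 7.69e-14) and 29.4 to 52.9 FPM (0.85, adjusted p = 2.04e-05, edgeR). Below that level, the cystine transporter gene Slc7a11 rose more than Pycr1 in NRK-49F cells, from 1.44 to 3.45 FPM (1.26, adjusted p = 0.00278, edgeR). In NRK-52E cells Slc7a11 was low, at 0.172 and 0.235 FPM. The difference of its response between the lines did not pass (-0.91, adjusted p = 0.212, edgeR). Psat1, an enzyme of serine synthesis, moved in opposite directions, with 74.7 to 43.3 FPM in NRK-52E (-0.79, adjusted p = 1.06e-06) and 17.2 to 30.8 FPM in NRK-49F cells (0.84, adjusted p = 4.92e-06), and the difference of -1.63 passed (adjusted p = 2.44e-08, edgeR). The arginine and lysine transporter gene Slc7a1 fell most in NRK-49F (-0.49, adjusted p = 0.00947, edgeR).

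Of 21 other genes known as ATF4 or CHOP targets, 15 rose and 2 fell in NRK-52E (median 0.74), and 7 rose and 2 fell in NRK-49F cells (0.01). The shares were 71.4% and 9.52% in NRK-52E (24.7% and 36.6% of all genes), and 33.3% and 9.52% in NRK-49F (14.5% and 14.4%). Among genes averaging 5 FPM or more, Gadd45a, a growth arrest gene, rose most in NRK-52E, with 65.6 ± 4.01 FPM in controls and 451 ± 150 FPM at pH 6.0 (± SD, n = 6 samples each, 2.78, adjusted p = 1.14e-12), and Vldlr, a lipoprotein receptor gene, fell most (-0.76, adjusted p = 3.13e-04). In NRK-49F the extremes among such genes were Vegfa, the vascular growth factor gene (169 to 466 FPM, 1.46, adjusted p = 3.90e-09), and Map1lc3b, an autophagy gene (-0.59, adjusted p = 3.42e-07, edgeR's quasi-likelihood test for all). The stress cytokine gene Gdf15, with control means near 0 (0.0495 and 0.0460 FPM), was also called higher in both lines, at 1.40 and 0.679 FPM, and is given no fold. Of 23 genes of the XBP1 and ATF6 arms of the unfolded protein response, 16 rose and 2 fell in NRK-52E (0.66), and 1 rose and 2 fell in NRK-49F cells (-0.01). The shares were 69.6% and 8.7% in NRK-52E (24.7% and 36.6% of all genes), and in NRK-49F 4.35% and 8.7%, below the 14.5% and 14.4% of all genes. Among genes averaging 5 FPM or more, Sel1l, of the degradation machinery, rose most in NRK-52E (1.48, adjusted p = 8.13e-10) and Edem1, of the same machinery, fell most (-0.84, adjusted p = 2.05e-07). Manf, below that level, had 0.245 FPM in NRK-52E controls and 0.863 FPM at pH 6.0 (1.73, adjusted p = 6.16e-04, edgeR). The chaperone gene Hyou1 was the called rise in NRK-49F (0.59, adjusted p = 2.00e-04), and Pdia4 fell most there (-0.39, adjusted p = 0.00348, edgeR).

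The mTORC1 control list held 16 genes around Ddit4 and Sesn2, with Akt1 and Keap1 among them. Of these, 4 rose and 6 fell in NRK-52E (median -0.02), and 5 rose and 3 fell in NRK-49F cells (-0.06). The NRK-52E shares, 25% and 37.5%, were near those of all genes (24.7% and 36.6%), so the list showed nothing of its own there, and in NRK-49F 31.2% and 18.8% stood beside 14.5% and 14.4%. Rragd, a GTPase that brings mTORC1 to the lysosome, rose most in NRK-52E (0.91, adjusted p = 3.41e-06), and Mlst8, a subunit of the complex, fell most (13.7 to 5.40 FPM, -1.33, adjusted p = 7.51e-08). In NRK-49F Rptor, the raptor gene, rose (0.63, adjusted p = 1.95e-06) and Castor1, an arginine sensor gene, fell (-0.72, adjusted p = 9.06e-06, edgeR's quasi-likelihood test for all).

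Outside the core, the genes whose pattern over the 23 samples was most like that of Atf4 were Shmt2, Sars1 and Eif4ebp1, with root mean square differences of centred log2(FPM + 0.5) of 0.10, 0.13 and 0.16. Shmt2, a mitochondrial enzyme of the folate cycle, went with Atf4 in log2 fold change (0.65 in NRK-52E and 0.32 in NRK-49F cells). The nearest to Ddit3 were Tmem199, Nudcd2 and Trnau1ap (0.22, 0.22 and 0.25), and those to Atf3 were Tkt, Rdm1 and Acyp1 (0.50, 0.58 and 0.64). Tkt, the transketolase gene, had log2 fold changes of 1.03 in NRK-52E and 2.41 in NRK-49F cells, the same order as Atf3. Among the core genes with more than 17 counts the nearest pair was Asns and Ddit4 (0.31), followed by Atf4 and Sesn2 (0.37), and the farthest was Atf3 and Chac1 (1.90). These distances are descriptions over samples that share lines and sample groups.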

How the data were processed

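Poly(A) RNA of the rat lines was sequenced in read pairs. The authors deposited raw counts per gene, made with HISAT2 2.1.0 and featureCounts on the exons of Ensembl genes with multi-mapping reads included, and did not normalize them. The study's methods name the rat genome rn7 and the submitters' processing notes rn6, and the strand setting is not given in the sources used here. Of the per-sample columns 23 were used, grouped by the labels, and 13 others that matched no label were not. Genes were kept by filterByExpr (minimum count 10, minimum total 15), scaled by TMM and tested with edgeR 4.0.16 (quasi-likelihood test, R 4.3.3) in 1 model of 4 conditions over 23 samples, or of 8 conditions for the sample groups, with Benjamini-Hochberg adjustment at 0.05. The code was tested on simulated data. Alternatives were RLE and upper-quartile scaling, DESeq2 1.42.0, other filters, each line alone, sample group as a block, each sample group alone, raw library sizes for the levels, and leaving out each sample. The stress genes, the gene lists and the tests were chosen with earlier results of these data known. Named from each list were the called genes with the largest rise and fall in each line among those with a mean of at least 5 FPM, all kinases, all relatives, and the 3 nearest genes to Atf4, Ddit3 and Atf3. Other genes were named after their values were seen. Promoters came from RefSeq, GRCr8. No replicate pair agreed within sampling noise (lowest chi-square per gene 5.94).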

Additional observations from a re-analysis of the deposited data

Results flagged for a closer look

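In NRK-49F cells at pH 6.0, 1 sample (A042) stood apart for Atf4 at 458 FPM, the only such value in 36 groups of samples tested with Dixon's criterion, which chance meets in about 1 of 20 groups. This sample also had the lowest TMM scaling factor of the 23 (0.804), and on raw library size its level was 368 FPM, with 282 to 307 FPM in the other 4. The part of the scaling was not tested. Without A042 the log2 fold change of Atf4 in NRK-49F cells was 0.16.

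The response to acidosis differed between NRK-52E and NRK-49F cells for Trib3 (log2 difference 0.86), Atf4 (0.44) and Atf3 (-1.34), and between sample groups 3 and 1 of NRK-52E cells for Trib3 (1.35), Sesn2 (0.89), Ddit4 (0.55) and Asns (0.41), all by edgeR's quasi-likelihood test of the difference.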

How the results depend on the processing

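The calls for the stress genes in NRK-52E (8 higher) and NRK-49F cells (5 higher) were 8 and 5 under each scaling, filter and call rule and with each line alone, except 6 in NRK-49F with DESeq2, while within sample groups they were 6 to 8 and 5 to 6. Of 290 gene values in NRK-52E, 288 kept direction and side of the threshold, and the other 2 (Chac1 and Sesn2 within group 1) kept direction. With each line fitted alone the median of all genes in NRK-52E was -0.0023 instead of -0.12. The cause of the changes below was not tested. DESeq2 called 843 genes higher in the NRK-52E sample group test, and 10 (8 higher, 2 lower) in that of NRK-49F, where Atf3 was at -0.0028. In NRK-49F cells Atf5 was at 0.26 and Sesn2 at -0.0065 within group 4, and Chac1 at -0.15 within group 6.

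On leaving out each sample, the stress genes called as responding more in NRK-52E numbered 1 to 4 (4 without A025 or A026), those lower in NRK-52E at pH 6.0 1 to 2 (2 without A038), and those responding more in sample group 3 2 to 4 (2 without A022, A025 or A038). The genes called higher in the NRK-52E sample group test ran from 358 (without A025) to 696 (without A042), and the NRK-49F test called 0 to 11, with 0 to 3 higher and 0 to 8 lower, the highest without A043. The NRK-49F acid change of Chac1 ran from -0.013 to 0.14, and the line difference at pH 7.4 from -0.096 to 0.029 for Asns and from -0.035 to 0.15 for Atf3. The NRK-49F sample group differences, none called, ran from -0.65 to 0.011 for Atf4, -0.37 to 0.69 for Ddit3, -0.18 to 0.22 for Atf3, -0.19 to 0.51 for Trib3, -0.18 to 0.11 for Asns, -0.029 to 0.16 for Ddit4 and -2.96 to 3.27 for Atf5. No paired analysis was possible because the groups share no replicate numbers. Atf5 had only 0 to 17 counts per sample, and the cause of these low counts was not tested.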
